A study of Mus musculus with 7 samples.

Results

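The RNA polymerases, the Mediator complex and the general transcription factors carry out transcription in every cell, and the promoters of 92 genes that encode them are described here. The genes were chosen by symbol alone: Polr1, Polr2 and Polr3 (subunits of RNA polymerases I, II and III), Gtf2 and Gtf3 (general factors of RNA polymerases II and III), and Med or Taf followed by a digit (Mediator subunits and TBP-associated factors). This rule matched 117 of the 36733 transcription start sites (TSSs) in the files, from 92 of the 17689 genes with a RefSeq TSS. By class there were 5 genes of RNA polymerase I, 11 of RNA polymerase II, 9 of RNA polymerase III, 14 general factors of RNA polymerase II, 7 general factors of RNA polymerase III, 28 Mediator genes and 18 TBP-associated factors. A symbol is not a function. The rule also took in Taf15, an RNA-binding protein of the FET family, and the TFII-I family genes Gtf2i and Gtf2ird1. Further ones were Taf5l and Taf6l, whose products belong to the SAGA coactivator rather than to TFIID, and Taf1d, of the RNA polymerase I factor SL1. Where a gene had several TSSs (24 genes), 1 was used throughout, and it lay within 100 bp of an annotated start in 81 genes. In the other 11 it lay farther away, by over 1000 bp in 5 (Med13l, Med25, Taf1, Taf1d and Taf6l), so the values of these 5 may not describe the main promoter of the gene.

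Chromatin immunoprecipitation followed by sequencing (ChIP-seq) was performed in E14 mouse embryonic stem cells (ESCs), with 1 library per condition. Tip60, a lysine acetyltransferase, and Hdac6, a member of the histone deacetylase family best known for deacetylating tubulin in the cytoplasm, were precipitated with a Flag antibody from Tip60-H3F and Hdac6-H3F ESCs, in which the endogenous protein carries a His and Flag tag. Tip60-H3F ESCs had received short hairpin RNA against GFP (GFP KD, the control) or Hdac6 (Hdac6 KD) from a lentivirus 72 hr before fixation. Hdac6-H3F ESCs had likewise received hairpins against GFP or Tip60. The same Flag antibody was used on untagged wild-type ESCs as a background control. No time after infection is given for the untagged library. Comparisons with it may thus differ in virus and hairpin as well as in the tag. Endogenous p400, the ATP-dependent nucleosome remodeling subunit of the complex, was precipitated with its own antibody from E14 ESCs without a tag upon GFP KD or Hdac6 KD, and no background library for this antibody was analysed here. The title of the second Hdac6 library names Tip60 KD while its genotype entry names Hdac6 KD, and it is described below by its title. ChIP does not measure how far a knockdown went. The comparisons ask how much Tip60 and p400 sits at these promoters without normal Hdac6 levels, how much Hdac6 sits there without normal Tip60 levels, and which Flag signal exceeds that of untagged cells.

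The libraries had been normalized to between 9226710 reads (Hdac6, Tip60 KD) and 31375600 reads (p400, Hdac6 KD). Promoter signal is given in reads per 1000000 normalizing reads (RPM) over the 1 kb centred on the TSS, and a member promoter held a median of between 12 reads (Hdac6, Tip60 KD) and 30 reads (p400, GFP KD). With 1 library per condition there is no error between cultures. The 95% intervals below are exact intervals from the read counts and cover counting error only, and the read test (an exact conditional binomial test, two-sided, with Benjamini-Hochberg adjustment over all genes tested) compares a pair of libraries, not the conditions. Genes with fewer than 20 reads in both libraries of a comparison together were not tested.

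As background, RNA polymerase I makes the large ribosomal RNA, RNA polymerase II makes messenger RNA, and RNA polymerase III makes tRNA and other short RNAs. RNA polymerase II is placed on promoters by TFIID, which holds most of the TBP-associated factors, and by TFIIA, TFIIB, TFIIE, TFIIF and TFIIH. Mediator links this polymerase to transcription factors bound at enhancers. Genes for this machinery are expressed in nearly all cells, mostly from promoters rich in CpG dinucleotides. Tip60 and p400 are subunits of a complex that acetylates histones and remodels nucleosomes. Member promoters held a median of 59.5 CpGs in the 1 kb around the TSS, against 45 over all genes, at a median GC content of 56.9% against 55.8%. Another RefSeq gene in the files started upstream on the opposite strand within 1000 bp in 18.5% of members (17 genes), against 6.94% of all genes. Med22, for example, shares its promoter with the ribosomal protein gene Rpl7a, Med29 with Paf1 and Taf9 with Rad17. At these promoters the signal cannot be assigned to either gene.

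All 92 member promoters held p400 reads upon GFP KD, but reads alone do not show binding. In the same library, promoters of olfactory receptor genes, silent in ESCs, held a median of 9 reads (0.356 RPM). The lowest, the median and the highest level of the members were 0.121, 1.18 and 2.70 RPM. Of the 92, 74 lay above the median of all genes (0.848 RPM), 46 of them in the top 25% of all genes. The highest promoter was that of Gtf3c6, a subunit of the TFIIIC complex that recognizes tRNA genes, at 2.70 RPM, above 99.7% of all genes. It was followed by Taf15 (2.01 RPM), Polr2i, a small RNA polymerase II subunit (1.92 RPM), the RNA polymerase III subunit Polr3d (1.92 RPM), Polr1c, a subunit that RNA polymerases I and III share (1.90 RPM), and, at 1.88 RPM each, the Mediator subunit Med11 and the TFIIIC subunit Gtf3c4. The counting intervals of neighbours in this order overlap widely: the reads were 68 for Gtf3c6, 51 for Taf15, 49 for Polr2i and Polr3d, and 48 for Polr1c, Med11 and Gtf3c4. At the low end were Med14, the backbone subunit of Mediator (0.121 RPM), Taf1, the largest TFIID subunit (0.269 RPM), Polr1a, the catalytic subunit of RNA polymerase I (0.314 RPM) and Med25 (0.319 RPM). The TSSs used for Taf1 and Med25 lay 15401 bp and 8159 bp from an annotated start. Those of Med14 and Polr1a had only 5 and 6 CpGs around them, and the second TSS of Med14 in the files had 0.515 RPM of p400.

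**Figure D1:**
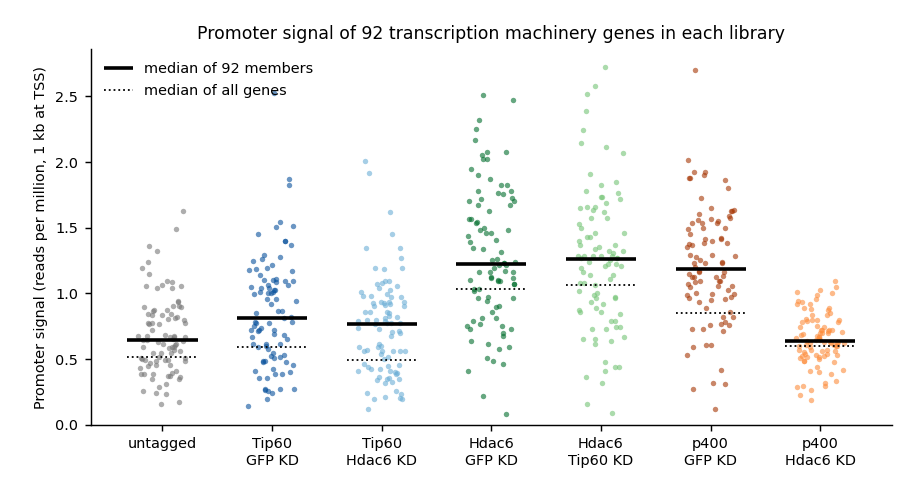
Promoter signal in RPM (over 1 kb at the TSS, y axis) of the 92 genes in each of the 7 libraries (x axis), 1 point per gene, with the median of the members (solid bar) and of all genes (dotted bar). In p400 the member median goes from 1.18 RPM upon GFP KD to 0.642 RPM upon Hdac6 KD, near the median of all genes in that library (0.600 RPM).

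The promoters of 6 genes are printed to show what lies under the values described below. Each runs from 220 bases upstream of the TSS used to 5 bases from the TSS on, read from the mm9 genome in the direction of transcription. Capitals mark matches on either strand to 9 short motifs. The letters searched were CCGGAAG for the Ets factors, GCGCATG for the factor Nrf1 and AAGATGG for the factor YY1. They were GGGCGG for the GC box bound by Sp1, TATAAA for the TATA box bound by TBP and CCAAT for the box bound by NF-Y. The remaining ones were TGACGTCA for the cyclic AMP response element (CRE), ACTACAA for part of the site of Znf143 and CACGTG for the E box bound by Myc. Gtf3c6 had the highest p400 level, Taf15 and Gtf2i had large falls of p400, Polr3a encodes the catalytic subunit of RNA polymerase III, and Med4 and Med10 had the lowest and the highest Tip60 ratio among tested members upon Hdac6 KD. The regions are Gtf3c6 chr10:39977467-39977691, minus strand, Taf15 chr11:83286390-83286614, plus strand, Gtf2i chr5:134790612-134790836, minus strand, Polr3a chr14:25306264-25306488, minus strand, Med4 chr14:73909636-73909860, plus strand, Med10 chr13:69948540-69948764, plus strand.
Gtf3c6: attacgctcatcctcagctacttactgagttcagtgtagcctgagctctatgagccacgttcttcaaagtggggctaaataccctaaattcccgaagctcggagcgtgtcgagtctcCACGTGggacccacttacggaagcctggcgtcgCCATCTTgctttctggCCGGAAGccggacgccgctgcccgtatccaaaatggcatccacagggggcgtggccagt
Taf15: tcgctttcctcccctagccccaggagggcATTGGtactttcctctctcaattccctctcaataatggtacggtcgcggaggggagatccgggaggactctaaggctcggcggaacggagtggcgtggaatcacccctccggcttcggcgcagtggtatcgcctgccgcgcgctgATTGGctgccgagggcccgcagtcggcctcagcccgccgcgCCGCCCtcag
Gtf2i: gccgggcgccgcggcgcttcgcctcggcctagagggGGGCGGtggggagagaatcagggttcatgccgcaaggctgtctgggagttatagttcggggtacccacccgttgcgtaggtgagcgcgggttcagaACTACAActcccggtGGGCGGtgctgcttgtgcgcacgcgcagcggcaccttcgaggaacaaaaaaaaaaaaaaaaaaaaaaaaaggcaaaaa
Polr3a: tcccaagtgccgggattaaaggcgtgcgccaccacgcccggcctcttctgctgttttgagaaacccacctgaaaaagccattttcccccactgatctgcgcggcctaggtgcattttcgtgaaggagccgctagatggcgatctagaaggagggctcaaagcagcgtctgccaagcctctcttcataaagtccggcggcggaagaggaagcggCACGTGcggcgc
Med4: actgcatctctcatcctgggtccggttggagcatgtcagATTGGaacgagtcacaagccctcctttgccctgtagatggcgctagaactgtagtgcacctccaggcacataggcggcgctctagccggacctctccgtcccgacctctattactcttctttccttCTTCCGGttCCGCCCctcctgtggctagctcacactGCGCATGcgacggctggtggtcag
Med10: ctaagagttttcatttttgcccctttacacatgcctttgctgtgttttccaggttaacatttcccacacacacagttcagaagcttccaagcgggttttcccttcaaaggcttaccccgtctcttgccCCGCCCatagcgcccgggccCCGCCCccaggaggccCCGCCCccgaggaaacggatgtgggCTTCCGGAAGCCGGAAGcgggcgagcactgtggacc

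Gtf3c6 held 1 Ets, 1 YY1 and 1 E box match within these bases, Taf15 held 1 GC box and 2 CCAAT matches, and Polr3a held 1 E box match alone. Gtf2i held 2 GC boxes and 1 Znf143 match. Med10 held 3 GC boxes and 3 Ets matches, of which 2 overlap, and Med4 held 1 match each to Ets, Nrf1, GC box and CCAAT, so Ets letters stood in the promoters with both the lowest and the highest tested Tip60 ratio. Over the 300 bases from 250 before to 50 after the TSS, 34.8% of the 92 mm9 windows held CCGGAAG on either strand, against 12.0% of the windows of all 17689 genes. In RefSeq promoters of the later build GRCm38.p6, of the same length and given for 80 members, the share was 32.5% against 12.0%. CACGTG was in 16.3% of member windows against 7.90% of all, GCGCATG in 10.9% against 4.69%, AAGATGG in 14.1% against 6.92%, ACTACAA in 9.78% against 3.53%, TGACGTCA in 4.35% against 2.44% and GGGCGG in 63.0% against 48.4%. TATAAA was in 9.78% against 12.8% and CCAAT in 37.0% against 37.1%, while in the RefSeq promoters TATAAA was in 15.0% against 13.1%, so its direction depends on the set of starts. The median p400 change upon Hdac6 KD was −45.9% in members with the Ets letters and −46.3% in those without. For CCAAT it was −40.8% with and −49.8% without, and for TATAAA −53.4% and −44.8%. For AAGATGG it was −54.3% and −44.8%, and for CACGTG −50.5% and −43.8%. For GCGCATG it was −47.2% and −45.6%, and for GGGCGG −46.6% and −45.7%. For ACTACAA it was −46.9% and −45.5%, and for TGACGTCA −42.5% and −46.0%. These differences were not tested. The shares are counts of letters, and binding of the factors was not measured.

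Upon Hdac6 KD, p400 signal was lower in 89 of the 92 member promoters (96.7%), against 75.5% of all genes. Pooled over the members, it stood at a mean of 0.653 RPM against 1.21 RPM (change −45.9%, 95% counting interval −49.0% to −42.6%). Over all genes the pooled change was −32.7%, and the median change was −46.0% for members and −30.5% for all genes. At least 1.5 times lower were 63 of the 89 members tested (70.8%), against 48.4% of the 15918 genes tested, and 1 was at least 1.5 times higher, against 6.64% of genes. By the read test p400 reads fell in 29 members (32.6% of those tested), against 15.2% of genes, and rose in 0, against 0.264% of genes. Members held a median of 30 p400 reads upon GFP KD against 21 over all genes, and the read test calls a given change more readily at higher depth. Among genes with at least 40 reads, 74.3% of members and 59.4% of genes were at least 1.5 times lower. Over −250 to 250 bp the shares were 71.6% and 61.6%. At an unadjusted p under 0.05, 44 of the 89 members were lower and 0 were higher, against 4599 of the 15918 genes lower.

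Gtf3c6 and Taf15 had the lowest adjusted p-values of the read test. Gtf3c6 held 68 p400 reads (2.70 RPM) upon GFP KD and 23 reads (0.717 RPM) upon Hdac6 KD, and its reads fell by 73.4% (interval −83.8% to −55.7%). Taf15 held 51 reads (2.01 RPM) and 13 reads (0.410 RPM) and fell by 79.7% (interval −89.7% to −61.6%). In both, the interval of the change lies below the pooled change of all genes. Both were picked as extremes, however, and had the highest p400 levels of the members upon GFP KD. Genes picked in this way tend to lie beyond the average, so the comparison with all genes is not a test. Next by size of the fall came Taf4a, a TFIID subunit (22 and 7 reads, −73.3%), Gtf2i (40 and 16 reads, −68.0%), Taf5l (38 and 15 reads, −67.3%) and Gtf2e1, the large subunit of TFIIE (39 and 16 reads, −66.0%). The intervals of these 4 genes are wide and overlap: that of Taf4a, with the fewest reads, runs from −90.7% to −37.8%. Upon Hdac6 KD the 29 promoters that fell all stood at 1.01 RPM or less, and the order of the genes upon GFP KD was not kept: Gtf3c6 went from the highest of all 92 to 0.717 RPM, near the member median of 0.642 RPM. A gene picked as the highest of a library tends to rank lower in another.

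**Figure D2:**
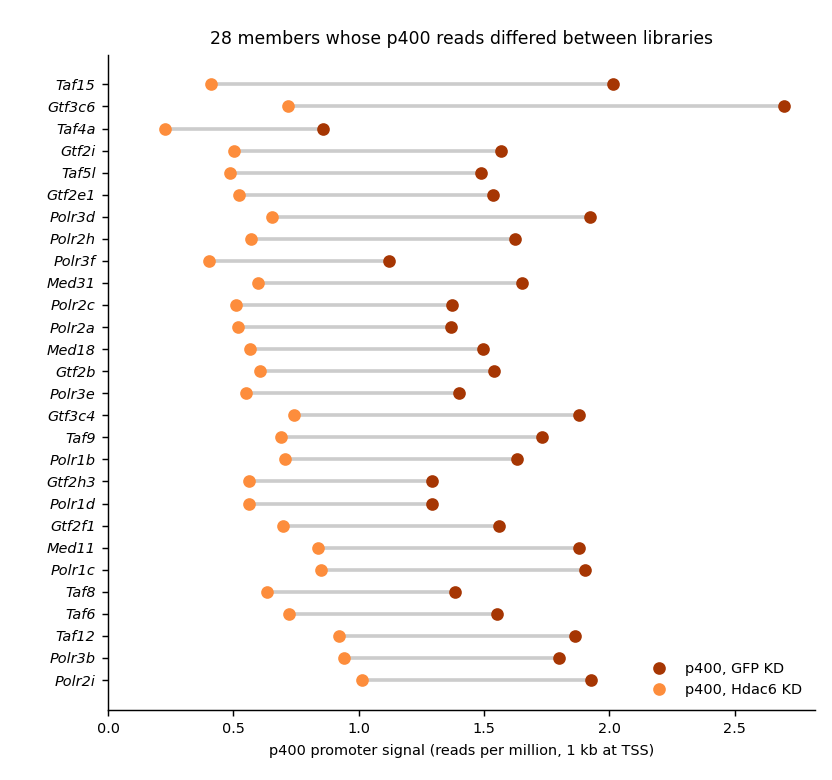
p400 promoter signal in RPM (x axis) upon GFP KD and Hdac6 KD at 28 of the 29 members whose reads fell by the read test (y axis, sorted by ratio, 1 library per point). The pairs run from Taf15 (2.01 to 0.410 RPM) to Polr2i (1.92 to 1.01 RPM), and their separation follows from choosing the genes by the read test.

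All classes had lower pooled p400 upon Hdac6 KD. Beside the counts by class below, 48.4% of all genes tested were at least 1.5 times lower and 15.2% fell by the read test. In RNA polymerase III all 9 genes were at least 1.5 times lower (pooled change −54.4%, interval −62.3% to −45.2%), and reads fell in 5 of them, among them Polr3b, the second-largest subunit, Polr3d, Polr3e and Polr3f. Polr3a, the catalytic subunit, went from 1.16 to 0.521 RPM (29 and 16 reads, −55.3%, interval −77.4% to −15.3%) but did not pass the adjusted test. The RNA polymerase III factors had a pooled change of −48.3% (5 of 7 at least 1.5 times lower), with falls in Gtf3c4 (−60.6%) and Gtf3c6. Gtf3a, the TFIIIA protein that binds the gene of the smallest ribosomal RNA, went from 1.38 to 0.698 RPM (−49.5%, interval −71.7% to −11.1%) without passing it.

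Of the 5 RNA polymerase I genes, Polr1b (−56.8%), Polr1c (−55.4%) and Polr1d (−56.5%) fell, where Polr1c and Polr1d are also part of RNA polymerase III. Polr1a, with 8 and 9 reads, was too shallow to test. In RNA polymerase II, 8 of 11 genes were at least 1.5 times lower (pooled change −45.9%, interval −54.4% to −36.5%). Reads fell in Polr2a, the catalytic subunit, from 1.37 to 0.517 RPM (35 and 16 reads, −62.2%), in Polr2c (−62.8%), in Polr2h (−64.9%), whose product all 3 polymerases use, and in Polr2i (−47.4%). The smallest differences of this class were those of Polr2e (−17.8%) and Polr2f (−18.9%), both encoding shared subunits. Among the 14 general factors of RNA polymerase II, 11 were at least 1.5 times lower (pooled change −49.0%). Reads fell in Gtf2b, the TFIIB protein (1.54 to 0.604 RPM, −60.7%), Gtf2e1, Gtf2f1 of TFIIF (−55.4%), Gtf2h3 of TFIIH (−56.5%) and Gtf2i, while Gtf2h4, another TFIIH subunit, had 0.610 and 0.598 RPM.

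The TBP-associated factors had a pooled change of −52.7% (interval −59.1% to −45.6%), with 14 of 17 tested genes at least 1.5 times lower and 7 falls: Taf4a, Taf5l, Taf6, Taf8, Taf9, Taf12 and Taf15. Mediator had the smallest pooled change of the classes, −34.6% (interval −41.1% to −26.9%), close to that of all genes. Of 27 Mediator genes tested, 13 (48.1%) were at least 1.5 times lower, near the 48.4% of all genes. Reads fell in Med11 (−55.4%), Med18 (−62.0%) and Med31 (−63.8%), all of which belong to the core complex. Med1, the subunit that nuclear receptors contact, went from 1.28 to 0.720 RPM (−43.8%, interval −67.6% to 2.22%), and Med12, of the kinase module, from 0.591 to 0.421 RPM (−28.9%, interval −69.4% to 57.5%). The 3 members with more p400 upon Hdac6 KD were all Mediator genes. Med14 had 3 and 11 reads (ratio 2.78, interval 0.781 to 16.5), Med25 8 and 22 (ratio 2.15, interval 0.951 to 5.76) and Med13l 11 and 19 (ratio 1.47, interval 0.630 to 3.24), and each interval includes no change. The TSS used was far from an annotated start in Med25 and Med13l, and at the second TSS of Med14 p400 went from 0.515 to 0.320 RPM, while at that of Med13l it was also higher upon Hdac6 KD (0.755 and 0.965 RPM). The difference between Mediator and the other classes was not tested.

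**Figure D3:**
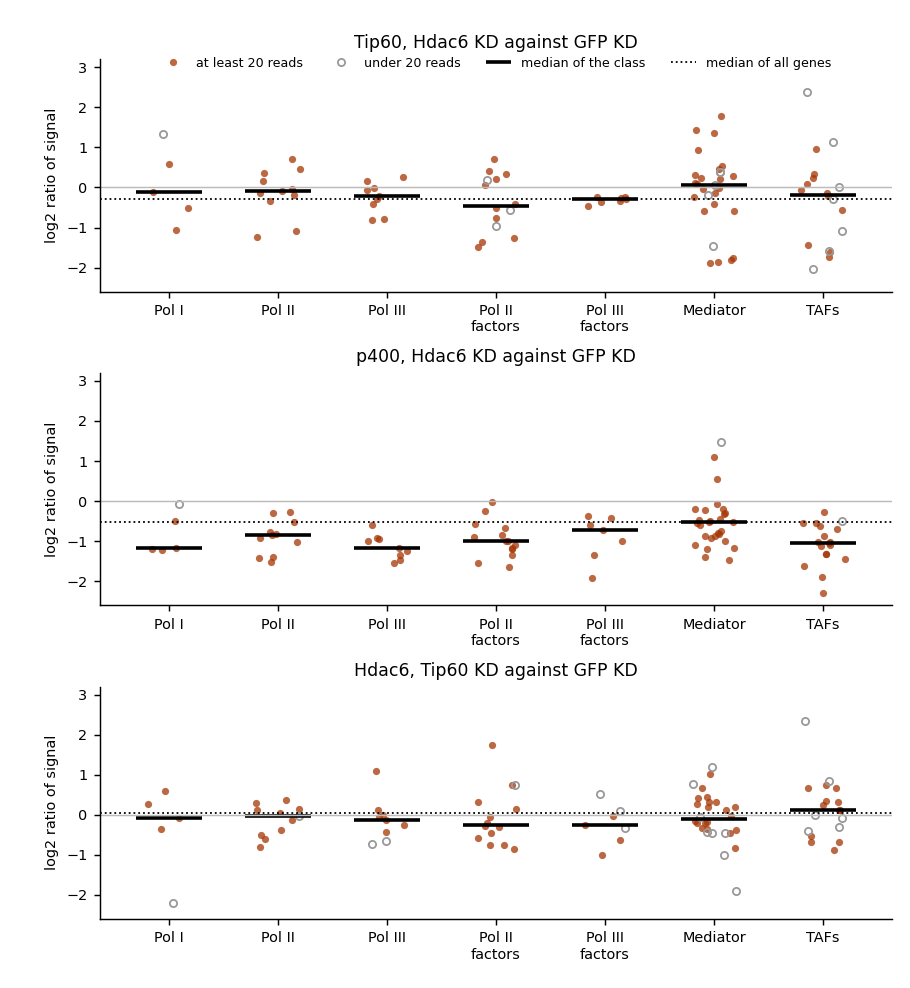
Log2 ratio of promoter signal (y axis) by class (x axis) for Tip60 and p400 upon Hdac6 KD and for Hdac6 upon Tip60 KD, 1 point per gene (open where the libraries held under 20 reads together), with class medians (solid bars) and the median of all genes (dotted line). p400 lies below 0 in 89 of 92 genes, while Tip60 and Hdac6 scatter on both sides of 0. Ratios of shallow genes scatter most.

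Tip60 at the same promoters gave a weaker and less uniform difference in signal without background subtracted. The mean over the members was 0.858 RPM upon GFP KD and 0.747 RPM upon Hdac6 KD, against 0.687 RPM in the untagged library. Much of the Tip60 signal is thus at the untagged level, and the sizes of the Tip60 and p400 changes cannot be compared directly. The level upon GFP KD had a minimum of 0.141, a median of 0.816 and a maximum of 2.53 RPM, and upon Hdac6 KD a minimum of 0.119, a median of 0.770 and a maximum of 2.01 RPM. Pooled over the members the change was −13.0% (interval −18.6% to −5.90%), against −16.6% over all genes, and 56 of the 92 members (60.9%) were lower, near the 62.8% of all genes. At least 1.5 times lower were 17 of the 76 members tested (22.4%), against 33.1% of all genes tested, and 8 were at least 1.5 times higher, against 12.6% of genes. No member passed the read test in either direction, where 1.03% of genes fell and 0.0729% rose. At an unadjusted p under 0.05 12 of the 76 members were lower and 1 was higher, against 1245 of the 10978 genes lower. The share at least 2 times lower was 17.1% of members and 16.6% of genes, and the difference in share was not tested. Scaling each ratio by the ratio of the same libraries in flanking windows of equal GC content turned the pooled change to 4.45%, and that of all genes to −0.12%, so the direction of the Tip60 change rests on how GC content is treated.

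Among tested members the lowest Tip60 ratios were mostly those of Mediator genes. Med4 had 27 and 6 reads (−72.8%, interval −91.6% to −38.8%), Med7 25 and 6 reads (−72.3%), Med22 31 and 8 reads (−71.6%) and Med1 23 and 6 reads (−70.5%, interval −90.3% to −26.6%). Taf5l (−69.9%) and Taf10, shared by TFIID and SAGA (−67.0%), followed. The 3 highest were also Mediator genes: Med10 had 6 and 18 reads (0.270 and 0.935 RPM, ratio 3.47, interval 1.27 to 10.3), Med29 6 and 14 reads and Med19 8 and 17 reads. Taf9b, a paralog of Taf9, had 9 and 15 reads. None of these 10 genes passed the adjusted test, and across the 28 Mediator genes the pooled change was −4.98% (interval −17.2% to 9.68%). The 7 RNA polymerase III factors lay between −14.5% and −27.5%, with a pooled change of −19.5% (interval −36.1% to 1.48%).

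At least 1.5 times lower in both Tip60 and p400 upon Hdac6 KD were 13 of the 76 members tested in both (17.1%), against 20.2% of the 10735 genes tested in both. They were Med1, Med22, Polr1b, Polr2b, Polr2h, Polr3d, Polr3e, Gtf2a1, Gtf2f1, Gtf2h1, Gtf2h5, Taf5l and Taf15. For Gtf2a1 this holds at the TSS used. At its second TSS, nearer the annotated start, Tip60 had 1.44 RPM upon GFP KD and 1.45 RPM upon Hdac6 KD. There p400 went from 2.27 to 0.596 RPM. Polr1b, the second-largest subunit of RNA polymerase I, went from 1.87 to 0.901 RPM in Tip60 and from 1.63 to 0.705 RPM in p400. Taf15 went from 1.55 to 0.569 RPM in Tip60 and from 2.01 to 0.410 RPM in p400. Gtf3c6 had 54 and 38 Tip60 reads (2.53 and 2.01 RPM, −20.5%, interval −49.7% to 20.9%) where p400 fell by 73.4%. The untagged level of Gtf3c6, not subtracted here, was 1.49 RPM. Over the 92 genes the log2 ratios of Tip60 and p400 had a Spearman's rho of 0.18, and over 17423 genes of 0.09. These points share their GC content as well as the knockdown.

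GC content moved with both ratios. Over the members Spearman's rho between GC content and the log2 ratio upon Hdac6 KD was −0.29 for Tip60 and −0.36 for p400, against −0.20 and −0.40 over all genes, and 0.04 for Hdac6 upon Tip60 KD. The median p400 change of members was −31.9% at 45 to 50% GC (8 genes), −36.9% at 50 to 55% (25 genes), −46.9% at 55 to 60% (29 genes), −53.6% at 60 to 65% (16 genes) and −60.4% from 65% (10 genes). In all genes of the same classes it was −4.09%, −24.5%, −35.3%, −41.0% and −43.0%. In flanking windows 1500 to 2000 bp from the TSS, matched in GC content to the promoters of all genes of 65% GC or more, the median ratio upon Hdac6 KD was 0.701 for p400 and 0.685 for Tip60. With each ratio divided by that of flanking windows of equal GC content, the pooled p400 change of members was −42.9% and that of all genes −25.3%. So divided, 64 of the 89 members tested were at least 1.5 times lower (71.9%, against 37.9% of genes). Whether the relation with GC content comes from the libraries or from the promoters was not tested.

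**Figure D4:**
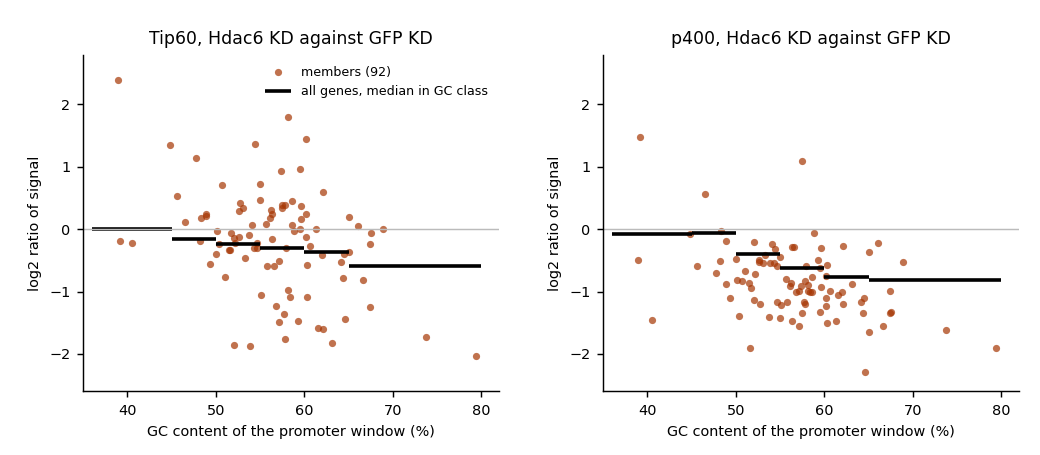
Log2 ratio of Tip60 (left) and p400 (right) promoter signal upon Hdac6 KD (y axis) against GC content of the promoter window in percent (x axis), 1 point per member, with the median of all genes in each GC class (bars). Both go down with GC content, and the p400 points lie mostly below the bars of all genes: the member median is −46.9% at 55 to 60% GC, where that of all genes is −35.3%.

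Against the untagged control, Tip60 signal upon GFP KD was higher by 24.96% (pooled, interval 15.4% to 33.0%) over the members, and by 21.3% over all genes. At least 2 times the untagged level was reached by 13 of 81 members tested, against 15.3% of genes, and by the read test Tip60 was higher in 1 member, Polr3g, against 2.47% of genes. Polr3g encodes the form of an RNA polymerase III subunit that is abundant in ESCs. It held 5 untagged reads (0.234 RPM), 29 Tip60 reads upon GFP KD (1.37 RPM) and 20 upon Hdac6 KD (1.03 RPM), and its ratio of Tip60 to untagged was 5.84 (interval 2.41 to 20.8). In the remaining libraries it had 1.40 RPM (Hdac6, GFP KD), 1.53 RPM (Hdac6, Tip60 KD), 1.09 RPM (p400, GFP KD) and 0.542 RPM (p400, Hdac6 KD), so that the untagged library was its lowest. The gene Mblac2 starts on the other strand of this promoter. The paralog Polr3gl had 0.642 RPM untagged and 0.941 RPM in Tip60. After Polr3g, the Tip60 signal above untagged was highest at Gtf3c6 (2.53 against 1.49 RPM), Taf15 (1.55 against 0.561 RPM), Taf10 (1.05 against 0.246 RPM), Taf8 (1.19 against 0.387 RPM) and Polr1b (1.87 against 1.08 RPM), without passing the read test. Tip60 was below untagged in 32 members (34.8%), near the 37.6% of all genes, among them Taf11 (0.254 against 1.19 RPM), which the read test called lower where 0.167% of genes were, Polr2g (0.869 against 1.36 RPM), Polr2a (1.14 against 1.63 RPM) and Taf3 (0.389 against 0.835 RPM). The TSS used for Taf11 lay 519 bp from an annotated start. Polr2a had the highest untagged signal of all members.

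Hdac6 exceeded untagged more broadly, by a pooled ratio of 1.87 (interval 1.72 to 2.00) over the members and 1.97 over all genes. At least 2 times the untagged level was reached by 41 of 81 members tested (50.6%), against 53.9% of genes, and 30 (37.0%) passed the read test, against 38.4%. The reads of the Hdac6 libraries span about 149 bp in the files and those of the others about 299 bp, so levels are compared in reads. By the difference from untagged, Polr2i led with 2.47 RPM against 0.671 RPM untagged (29 and 16 reads, ratio 3.69, interval 1.90 to 7.14), followed by Taf4a (1.95 against 0.171 RPM), Polr2b, the second-largest RNA polymerase II subunit (2.51 against 0.772 RPM), Med8 (2.25 against 0.549 RPM), Gtf2h5 (2.32 against 0.838 RPM) and Taf10 (1.71 against 0.246 RPM), and all 6 passed the read test. Lowest were Taf11, Med27, Taf1 and Med24, each under its untagged level. Across the 92 genes Hdac6 and Tip60 levels upon GFP KD had a Spearman's rho of 0.28, Hdac6 and p400 of 0.53, and Tip60 and p400 of 0.59. Tip60 and untagged had 0.38, and Hdac6 levels went with GC content (0.44).

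Upon Tip60 KD, Hdac6 signal at the members had a minimum of 0.087, a median of 1.26 and a maximum of 2.72 RPM, and upon GFP KD a minimum of 0.081, a median of 1.22 and a maximum of 2.51 RPM. The pooled change was −2.85%, with an interval from −10.3% to 5.47% that includes no change, and over all genes it was 3.40%. At least 1.5 times lower were 12 of 70 members tested, against 12.2% of genes, and 9 were at least 1.5 times higher, against 15.9%. The read test called 0 members lower and 0 higher, as it did over all genes (0.0% in each direction), and 1 member had an unadjusted p under 0.05. That gene was Gtf2a1, the large subunit of TFIIA, with 9 reads (0.755 RPM) upon GFP KD and 23 (2.52 RPM) upon Tip60 KD. The second TSS of Gtf2a1 in the files, nearer its annotated start, had 1.46 and 1.56 RPM. Among tested members the lowest ratios were those of Gtf3a (23 and 9 reads), Taf12 (18 and 8), Gtf2f2 of TFIIF (23 and 10), Med8 (26 and 12), Polr2h (18 and 8) and Gtf2h1 (15 and 7), and after Gtf2a1 the highest were Polr3f (8 and 13), Med18 (12 and 20) and Taf5l (11 and 15). The intervals of these 9 genes all include no change, so smaller differences were not detectable at this depth. Med6, under the minimum of 20 reads, had 14 and 3 reads (interval −95.0% to −3.59%).

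Around the TSS, p400 upon GFP KD had its maximum at the members at −80 bp, and the promoter window held 2.22 times the signal of the flanks 1500 to 2000 bp away, against 1.69 times over all genes. Upon Hdac6 KD this enrichment was 1.24 at members and 1.17 over all genes, and flank signal of members differed by −3.63%. The untagged Flag library, made with another antibody, had 1.26 at members. With 1 library per condition, how well each p400 precipitation worked cannot be told apart from the knockdown, and it was not tested. The p400 change was −48.6% upstream (−600 to −200 bp) and −45.6% downstream (−100 to 300 bp) of the TSS, against −30.4% and −35.6% over all genes. Tip60 was 1.56 times its flanks upon GFP KD and 1.49 times upon Hdac6 KD, against 1.26 times in the untagged library. The Tip60 change was −18.1% downstream and −4.60% upstream, against −20.4% and −10.2% over all genes. Hdac6 peaked downstream, at 180 bp, with a downstream to upstream ratio of 1.53, against 1.08 for Tip60 and 1.14 for p400, all upon GFP KD. Over all genes these ratios were 1.48, 1.03 and 1.21, and olfactory receptor genes had 2.24 for Hdac6, so the Hdac6 asymmetry is not particular to the members. Reads span about 149 bp in the Hdac6 libraries and about 299 bp in the others, so the profiles are not smoothed alike. Downstream signal exceeded upstream in 67 of the 92 members for Hdac6 (72.8%, against 67.1% of all genes), 56 for p400 (60.9% against 62.2%) and 48 for Tip60 (52.2% against 50.8%). In the untagged library it did in 43 (46.7% against 43.0%). These shares are near those of all genes.

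**Figure D5:**
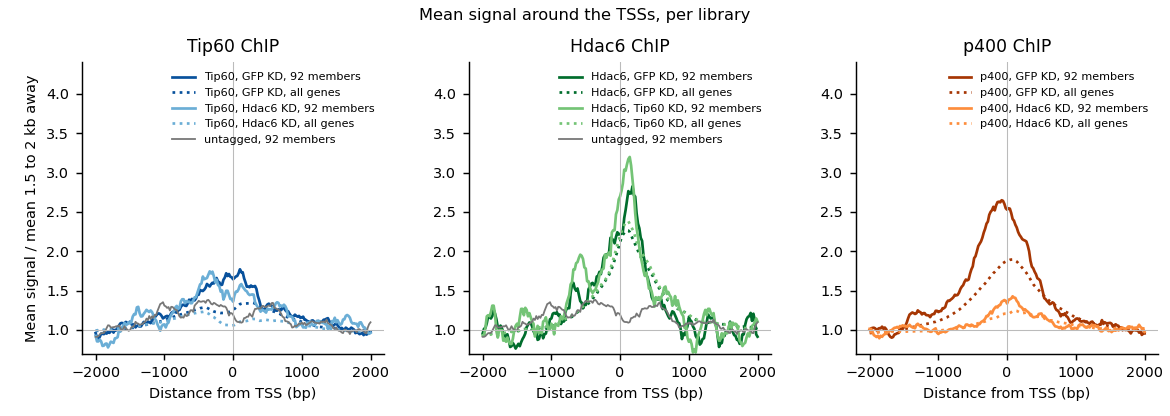
Mean signal (y axis, relative to the mean 1500 to 2000 bp from the TSS) against distance from the TSS in bp (x axis) for members (solid) and all genes (dotted), with the untagged library (grey) beside the Flag libraries. Upon Hdac6 KD the p400 peak of members goes from 2.22 to 1.24 times the flanks over the promoter window, while the Hdac6 peak downstream of the TSS remains upon Tip60 KD.

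The core subunits show how the 7 libraries compare at single promoters, in RPM. At Polr2a, Tip60 stood at 1.14 upon GFP KD and 1.07 upon Hdac6 KD, Hdac6 at 2.08 upon GFP KD and 1.91 upon Tip60 KD, untagged at 1.63, and p400 at 1.37 and 0.517. Of the knockdown comparisons p400 passed the read test here and the others did not, and Tip60 was below untagged. Gtf2b, which bridges TBP and the polymerase, had 0.772 and 0.977 in Tip60, 1.09 and 1.82 in Hdac6, 1.05 untagged, and 1.54 and 0.604 in p400. At Polr3a the values were 0.693 and 0.593 in Tip60, 0.731 and 0.437 in Hdac6, 0.491 untagged, and 1.16 and 0.521 in p400, where the Flag and p400 levels come from different antibodies. Gtf3a had 0.819 and 0.677 in Tip60 and 0.679 untagged, and more Hdac6, at 2.02 and 1.01. Med1 had 1.09 and 0.321 in Tip60, 1.53 and 1.21 in Hdac6 and 0.503 untagged. Med12 was low throughout, with 0.543 and 0.195 in Tip60, 0.731 and 0.364 in Hdac6 and 0.309 untagged. Polr1a had 6 and 13 Tip60 reads, 5 and 1 Hdac6 reads and 10 untagged reads, and Taf1 had 3 and 14, 1 and 4, and 12. Both promoters were under the minimum of 20 reads in every comparison.

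The remaining members, not named above for other values, were all lower in p400 upon Hdac6 KD, between −14.5% (Med13) and −56.5% (Med30), and none of them passed the read test. They were Polr1e, Polr2d, Polr2j, Polr2k, Polr3k, Gtf2e2, Gtf2h2, Gtf3c1, Gtf3c2, Gtf3c3, Gtf3c5, Taf2, Taf5, Taf13, Med9, Med13, Med15, Med16, Med17, Med20, Med21, Med26, Med28 and Med30.

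Some members are relatives of another general factor. Taf7l and Gtf2a1l are germ cell forms of Taf7 and of the TFIIA large subunit, and Taf9b is a paralog of Taf9. Taf7l had 0.531 RPM of p400 upon GFP KD and 0.263 RPM upon Hdac6 KD, Gtf2a1l had 0.782 and 0.438 RPM, and Taf9b had 0.716 and 0.286 RPM, against 1.73 and 0.690 RPM for Taf9. Their untagged levels were 0.396, 0.607 and 0.454 RPM, and none of the 3 passed the read test. Where a gene has several TSSs, the row matters: at the downstream TSS of Taf15 p400 was 0.684 RPM upon GFP KD, at that of Polr3g 0.285 RPM, and at the second TSS of Taf1 0.441 RPM. At the TSS used for Med12, the most upstream of its 3, p400 went from 0.591 to 0.421 RPM, while the TSS farthest into the gene had 0.243 and 0.297 RPM. The change of the members pooled over all TSSs of each gene was −45.7% in p400.

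Other genes of the transcription machinery, outside the symbol rule, were listed by function (TBP and its relatives, TFIIH and TFIIIB subunits, elongation factors, the Paf1 complex and others, 53 genes in the files). Their pooled p400 change upon Hdac6 KD was −45.5% (interval −49.6% to −41.2%). At least 1.5 times lower were 40 of 52 tested genes (76.9%, against 48.4% of all genes tested). Reads fell in 21 (40.4%, against 15.2%). Their pooled Tip60 change was −23.0% (interval −30.7% to −15.6%), against −16.6% over all genes. For scale, the 36 proteasome genes had a pooled p400 change of −42.9%, the 79 ribosomal protein genes of −58.7% and the 1088 olfactory receptor genes, whose promoters are silent in ESCs and hold a median of 5 CpGs, of 2.41%. Ribosomal protein genes had the highest median p400 upon GFP KD among these lists, 1.70 RPM, against 1.18 RPM for members, 1.14 RPM for proteasome genes and 0.356 RPM for olfactory receptors. These differences between lists were not tested.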

How the data were processed

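ChIP-seq signal had been deposited by the authors as 1 table per library with a row per TSS and 20 bp bins over 2000 bp on either side. Per the study's methods and the submitters' processing notes, reads (CASAVA 1.8.2) were aligned to mm9 with Bowtie with at most 1 mismatch, reads with several matches were placed at 1 of them at random, and aligned reads were extended to a length of 150 bp. The version of Bowtie and the unit of normalization were not given in the sources used here. Signal steps gave whole reads, from which the reads normalized to, RPM and counts per promoter (−500 to 500 bp) were derived. Python 3.11.15, numpy 2.4.6, scipy 1.17.1 and pandas 2.3.3 were used. Ratios had 95% exact conditional binomial intervals, and calls used a fold of 1.5 (2 against untagged), at least 20 reads in both libraries together and an adjusted p of 0.05. The read test was tested on simulated data. Genes named are the 6 highest and 4 lowest levels (Flag libraries minus untagged), the 6 lowest and 4 highest tested ratios of each knockdown comparison, those at least 1.5 times lower in both Tip60 and p400, Polr1a, Polr2a, Polr3a, Gtf2b, Gtf3a, Med1, Med12, Taf1 and tissue-restricted relatives. Other genes, those passing the read test among them, were named after their values were seen. Taf4b and Med12l were not analysed here, and 1 member that enters the counts is not reported here by name. The members and lists were chosen with earlier results of these data known. GC correction divided each ratio by that of flanking windows of equal GC content. Nothing says that a library came from more than 1 culture.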

Additional observations from a re-analysis of the deposited data

How the results depend on the processing

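With 1 library per condition no alternative bears on the spread between cultures, and depth (a median of 12 to 30 reads per promoter) limits single genes. No paired analysis was possible because each condition has 1 library. The pooled p400 change was −38.2% over −1000 to 1000 bp and within its counting interval in the 9 other alternatives, of which the restriction to TSSs near an annotated start and to promoters with no divergent gene were chosen after seeing the data. The members at least 1.5 times lower in p400 numbered 63 of 89 tested (70.8%, against 48.4% of genes). They numbered 37 at a fold of 2 (41.6% against 23.8%) and 29 by the read test (32.6% against 15.2%). The pooled Tip60 change of −13.0% was −4.71% upstream of the TSS, and it reversed to 4.45% with the GC correction. Members lower in Tip60 numbered 17 of 76 tested (22.4%, against 33.1% of genes). Over −250 to 250 bp, where fewer genes reached the minimum of reads, they numbered 6 of 28 (21.4% against 35.4%). They numbered 28 of 76 at a lower fold threshold (36.8% against 46.8%) and 3 of 25 with at least 40 reads (12.0% against 32.4%). The read test called 0 of 76, against 1.03% of genes. Members lower in Hdac6 numbered 12 of 70 tested (17.1%, against 12.2% of genes) and 3 of 25 over −250 to 250 bp (12.0% against 14.5%). They numbered 22 of 70 at the same lower threshold (31.4% against 24.7%) and 1 of 70 at a fold of 2 (1.43% against 3.27%). With at least 40 reads they numbered 2 of 9 (22.2% against 7.84%). The read test called 0 of 70, against 0.0% of genes. The lower counts of the narrow window and of the higher minimum come with fewer genes tested. The ratio of Tip60 to untagged was 1.38 over −250 to 250 bp and 1.15 over −1000 to 1000 bp, and that of Hdac6 to untagged was 2.27 and 1.55, and 1.66 with equal flanks. For the other differences the cause was not tested.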
